A study of Mus musculus with 8 samples.

Results

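CD4 T cells of male visceral adipose tissue (VAT), sorted as negative for a Foxp3 reporter, had 690 genomic regions more accessible than in any regulatory T cell (Treg) library of the series. Accessibility was read by ATAC-seq, in which a transposase inserts sequencing adapters where DNA is not covered by nucleosomes, so that the count of a region follows how open it is. Of 46624 distinct regions in the count table, 45357 on chromosomes 1 to 19 could be kept, after 45 regions of the T cell receptor alpha locus on chromosome 14 had been left out. A region was selected when both CD4 libraries lay above all 6 Treg libraries, the CD4 mean was at least 1.5 times the mean of each of the 3 Treg groups, and the CD4 mean reached 2 CPM. CPM, the scaled count, is the count of a region divided by the autosomal total of its library, times 1000000. The selection therefore used the measured values themselves, and every comparison of CD4 cells with Tregs over these regions is a description without a test.

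The 8 libraries came from C57BL/6 mice with a red fluorescent protein (RFP) reporter at Foxp3, the gene of the factor that defines Tregs. RFP-positive Tregs were sorted from male spleen, male VAT and female VAT. CD4 T cells without RFP were sorted from male VAT. Each group has 2 libraries, each from cells of 3 pooled mice. The labels give no age or diet, and the CD4 group was sampled in males only. No effector subset was sorted, so a higher count can come from more cells with the region open or from each cell being more open, and these cannot be told apart. The labels do not say how the pools of a group differed, so p-values measure the spread between these libraries.

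RFP-negative CD4 T cells of fat are mostly conventional helper and memory cells. Helper cells of the Th1 type make interferon-gamma under the control of interleukin-12 and the factor T-bet, and in obese fat they are known to promote inflammation. Naive and central memory cells instead keep TCF-1, LEF-1, CCR7 and S1PR1, with which they recirculate through lymph nodes. Tregs hold helper cell responses back through Foxp3, CTLA-4 and high interleukin-2 receptor, and Tregs of fat add PPAR-gamma and the interleukin-33 receptor.

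At Foxp3 and Cd4 the libraries followed their labels. At a 3785 bp region of the Foxp3 locus the CD4 libraries had 1.41 and 2.10 CPM, and the Treg libraries 13.8 to 34.0. All 6 Foxp3 regions together gave 35.1 and 39.6 CPM in CD4 cells against 54.5 to 114 in Tregs. Regions of the Treg gene Ctla4 summed to 65.6 and 91.7 CPM in CD4 cells and to 104 to 136 in Tregs. Those of Ikzf2, the Treg factor Helios, summed to 118 and 139 CPM in CD4 cells and 133 to 190 in Tregs, and those of Il2ra, the interleukin-2 receptor alpha chain, to 50.4 and 61.1 against 54.3 to 81.7. These last 2 ranges overlapped. Regions of Cd4 itself summed to 33.9 and 47.0 CPM in CD4 cells and 29.9 to 43.3 in Tregs. Of the CD8 chains, Cd8a had no region, and the single Cd8b1 region had 1.23 and 1.40 CPM in CD4 cells against 0.865 to 2.96 in Tregs. The CD4 libraries were the shallowest, with 5669084 and 7155017 autosomal counts, and the Treg libraries had 8118371 to 15630184. One count was worth 0.176 and 0.140 CPM in CD4 replicates 1 and 2, and 0.0640 to 0.123 CPM in the Treg libraries.

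Few of the 690 regions lay at promoters, and 3 of those picked here belonged to genes of effector function. In all, 23 regions (3.33%) overlapped a RefSeq promoter of GRCm38.p6, taken as 250 bases before to 50 bases after a start, and 16 of these overlapped the promoter of a gene they were assigned to. The same share over all regions was not taken. Beside the genes printed below, the 16 lay at Nhsl1, Nsg2, Slfn1, Rgmb, Tcp11, B3galt4, Fam78a, Arhgap29, Nfe2l3, Sbk2 and Nrgn. The 3 effector genes therefore mark no trait of the set. The upstream bases inside the regions are printed for Ifng, the Th1 cytokine, for Prf1, the pore-forming protein perforin, and for Nkg7, a protein of cytotoxic granules. They are followed by B3galt2, a galactosyltransferase, and Pou2af1, the lymphocyte coactivator OCA-B, whose region covers the whole upstream promoter. Nkg7 and B3galt2 were chosen after their values were seen. The sequences are RefSeq, GRCm38.p6, plus strand, 5′ to 3′, and capitals mark matches to the RUNX motif TGTGGT and the ETS motif AGGAAG on either strand.
Ifng chr10:118440832-118440956, 214 to 90 bases before the start: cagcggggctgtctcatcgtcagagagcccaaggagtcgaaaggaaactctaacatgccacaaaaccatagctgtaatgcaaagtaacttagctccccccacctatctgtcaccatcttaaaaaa
Prf1 chr10:61297586-61297752, 250 to 84 bases before the start: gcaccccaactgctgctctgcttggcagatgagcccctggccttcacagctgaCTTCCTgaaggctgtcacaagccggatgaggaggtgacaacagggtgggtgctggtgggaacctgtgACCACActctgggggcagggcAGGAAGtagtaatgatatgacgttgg
Nkg7 chr7:43437036-43437114, 102 to 24 bases before the start: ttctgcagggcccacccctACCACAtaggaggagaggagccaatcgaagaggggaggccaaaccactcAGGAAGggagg
B3galt2 chr1:143640626-143640696, 71 to 1 bases before the start: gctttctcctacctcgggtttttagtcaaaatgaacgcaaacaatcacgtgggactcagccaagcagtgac
Pou2af1 chr9:51213440-51213689, 250 to 1 bases before the start: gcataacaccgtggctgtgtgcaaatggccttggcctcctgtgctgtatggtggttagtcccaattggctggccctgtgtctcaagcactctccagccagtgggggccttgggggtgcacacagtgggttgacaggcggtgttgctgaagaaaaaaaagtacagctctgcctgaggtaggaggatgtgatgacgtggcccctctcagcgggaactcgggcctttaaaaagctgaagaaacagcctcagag

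The perforin stretch held 1 RUNX and 2 ETS matches, and the Nkg7 stretch held 1 of each, with no overlap between matches. The printed stretches of Ifng, B3galt2 and Pou2af1 held no match to any of the 6 motifs searched. Those were the T-box motif TCACACC, RUNX TGTGGT, ETS AGGAAG, the AP-1 motif TGANTCA, the TCF/LEF motif CTTTGA and the E-box CAGGTG, each on both strands. The 23 regions met 26 promoter entries. Of these 26 whole promoters, 10 held the RUNX letters and 11 the ETS letters, where 16.8% and 35.4% of all 32851 promoters of 300 bases held them. The E-box stood in 7 (20.2% of all promoters), the T-box in 2 (3.98%), the AP-1 motif in 2 (7.81%) and the TCF/LEF motif in 1 (16%). A match of letters describes the sequence and shows no factor at the site.

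At the Ifng promoter region the counts were low, and both CD4 libraries lay above every Treg library. CD4 cells had 2.47 and 4.89 CPM there, male VAT Tregs 1.13 and 1.19, female VAT Tregs 0.815 and 0.729, and spleen Tregs 1.601 and 0.832. The Prf1 promoter region had 6.53 and 6.43 CPM in CD4 cells, 3.26 and 1.74 in Tregs of male VAT, 2.96 and 3.76 in those of female VAT and 3.08 and 3.01 in those of spleen. At the Nkg7 promoter region CD4 cells had 3.70 and 2.52 CPM, male VAT Tregs 1.13 and 0.543, female VAT Tregs 1.12 and 0.850, and spleen Tregs 0.739 and 0.512. The wide Pou2af1 region had 15.3 and 21.1 CPM in CD4 cells and 6.65 to 9.92 in the Treg libraries. Against the highest Treg group, these CD4 means were 3.03-fold (Ifng), 1.93-fold (Prf1), 3.16-fold (Nkg7) and 2.10-fold (Pou2af1) higher.

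Across all 690 regions the CD4 mean had a median of 4.77 CPM, and the Treg group medians were 1.65 CPM for male VAT, 1.71 for female VAT and 1.72 for spleen. The median ratio of the CD4 mean to the highest Treg group was 2.10, with a range of 1.501 to 11.1, and 383 regions reached 2-fold and 79 reached 4-fold. Spleen Tregs were the highest Treg group at 258 regions, female VAT Tregs at 249 and male VAT Tregs at 183. Male VAT Tregs were the lowest of the 3 at 303 regions, spleen Tregs at 240 and female VAT Tregs at 147. For the counts of the lowest group the matching shares over all regions were not taken, so they mark no trait of the selected regions. Female VAT Tregs were the highest Treg group at 36.1% of the selected regions and at 24.8% of all regions the rule could keep, and male VAT Tregs at 26.5% and 37.3%. For spleen Tregs these shares were nearly alike, 37.4% and 37.9%. The CD4 libraries also differed from each other: replicate 2 was above replicate 1 with a median ratio of 1.14 over the selected regions and 1.07 over all. The single-region ratios ran from 0.249 to 5.15, which shows how little a region with a median of 62 counts over both CD4 libraries fixes a level.

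**Figure D1:**
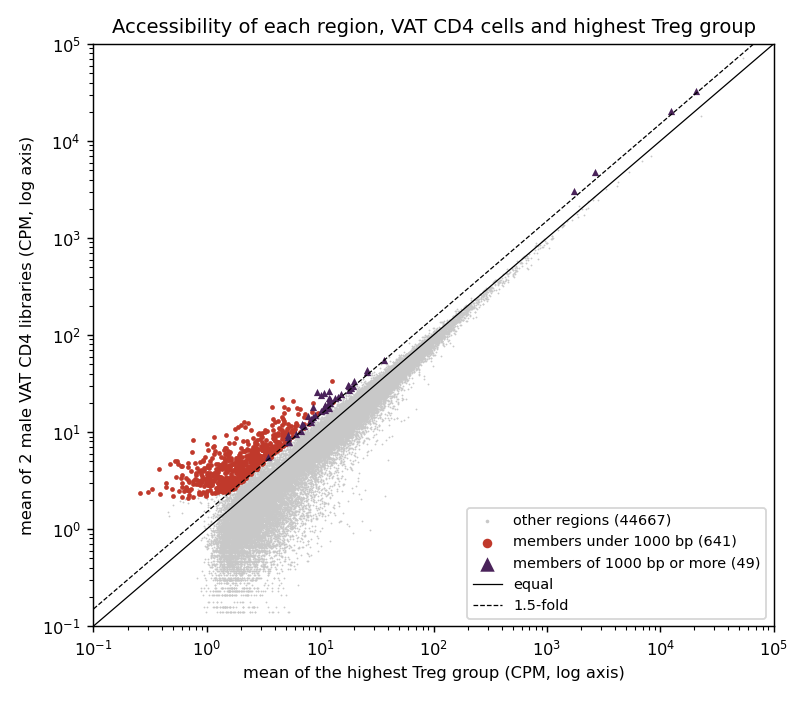
CD4 mean CPM (y, log scale) against the mean of the highest Treg group (x, log scale) for the 690 selected regions and, in grey, the other regions. Selected regions under 1000 bp are red dots, and those of 1000 bp or more are dark purple triangles. The selected regions lie above the 1.5-fold line and above 2 CPM by construction, most of them at a few CPM, and the 4 points at the upper right have CD4 means over 1000 CPM.

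The 4 regions of very high counts are uncertain and were set apart after their values were seen. The largest, chr9:3000029-3041064, assigned to Mir101c, had 31737 and 34529 CPM in CD4 cells, 13034 and 18426 in Tregs of male VAT, 20218 and 21294 in those of female VAT and 23327 and 12932 in those of spleen. The others were assigned to Gm2244 (CD4 mean 20533 CPM), 1700012B15Rik (4820) and Gm5614 (3037). Together they took 5.91% and 6.40% of the autosomal counts of the CD4 libraries and 2.35% to 4.26% of those of the Treg libraries. Among the other 686 regions the highest CD4 mean was 55.9 CPM. Near the limits of the rule, the weakest selected region was 1.501-fold above the highest Treg group (Stard13) and the closest rejected one 1.498-fold (1700064M15Rik). The lowest selected CD4 mean was 2.08 CPM, between Cd4 and Lag3, and the closest rejected one 1.91 CPM (Atf1 and Tmprss12).

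The selected regions were short. Their median width was 141 bp, and 641 of 690 (92.9%, Wilson 95% interval 90.7 to 94.6%, counting error only) were under 1000 bp, against 36.1% of all regions the rule could keep. The share under 1000 bp depended on the scaling and the fold: it was 83.8% with library totals over short regions only and 76.7% when the CD4 mean had to be only 25% above each Treg group. Counts in short regions made up 3.55% and 3.97% of the CD4 libraries and 4.12% to 5.53% of the Treg libraries, so the selected regions went against the sum of their width class. Without CD4 replicate 1 the rule kept 1067 regions, 627 of them shared with the 690, and without CD4 replicate 2 it kept 842, 565 of them shared.

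**Figure D2:**
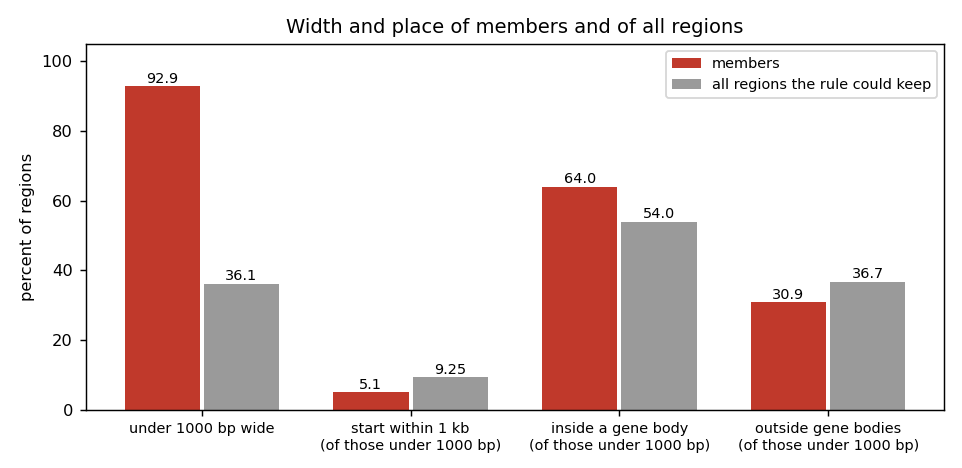
Left, share of regions by width for the 690 selected regions and for all regions the rule could keep. Right, share of regions under 1000 bp by place: 5.09% of the selected ones lay within 1 kb of a start, 64.0% inside a gene body and 30.9% outside, against 9.25%, 54.0% and 36.7% of all such regions.

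Most lay inside genes and away from starts. Starts could be placed for the 658 regions outside chromosome 18, and 34 of these (5.17%) were within 1 kb of a start, against 23.1% of all regions. Wide regions sit at starts more often, so the comparison within one width class is the closer one: of 609 short selected regions 31 (5.09%) were within 1 kb of a start, against 9.25% of 15843 short regions. Gene bodies held 64.0% of the short selected regions and 54.0% of all short regions. The median distance to a start was 21.7 kb. The regions were spread over the autosomes, from 0.869% of the regions of chromosome 14 to 2.05% of those of chromosome 10, with a median of 396 kb to the nearest other selected region and 84 regions within 10 kb of one.

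The widest regions of the same genes had the CD4 to Treg ratio of genes in general. For 591 of the 719 named genes at selected regions, the widest region of at least 1000 bp that was not itself selected had a median CD4 to Treg ratio of 0.899 over 527 regions, and the same ratio over all genes was 0.898. The quartiles were 0.817 and 0.985 beside 0.816 and 0.984. Regions that met the rule are absent from this ratio by construction. The gene assignments are those of the deposited table, and 409 of the 690 regions (59.3%) lay inside the body of a gene they were assigned to.

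Genes of cytotoxicity and NK receptors and genes of naive and memory cells held the largest shares of selected regions among the 17 lists. Selected were 7 of 62 regions of the cytotoxic list (11.3%), 14 of 128 of the naive and memory list (10.9%) and 7 of 87 of the Th1 list (8.05%), beside 1.52% of all regions and 3.91% of those under 1000 bp. T cell receptor signalling and identity genes had 7 of 125 (5.60%) and chemokine receptor and trafficking genes 7 of 140 (5.00%). Lower shares were found for follicular helper genes (3 of 89, 3.37%), Th17 genes (2 of 67, 2.99%) and activation and helper cytokine genes (3 of 124, 2.42%). These lay above the 1.52% of all regions. Among regions under 1000 bp alone, selected were 7 of 38 (cytotoxic), 12 of 71 (naive and memory) and 6 of 59 (Th1). For identity and trafficking genes they were 7 of 74 and 5 of 76. Follicular helper genes had 1 of 50, Th17 genes 2 of 49 and activation genes 3 of 70, beside 3.91% of all such regions. Treg core genes had 1 of 134 (0.746%), at Ctla4. No region of 60 at Th2 genes and none of 133 at fat Treg genes was selected. The lists were drawn up with results of these data known, so the shares describe them and support no direction. The CD4 mean over the mean of the 6 Treg libraries was also taken for every region of a list. Its median was 1.01 for the cytotoxic list, 1.01 for naive and memory genes and 0.767 for Th1 genes. The cytotoxic and the naive and memory medians were thus near the Treg level. Both lay above the 0.907 of all regions and the 0.786 of those under 1000 bp, and the Th1 median lay below both values.

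**Figure D3:**
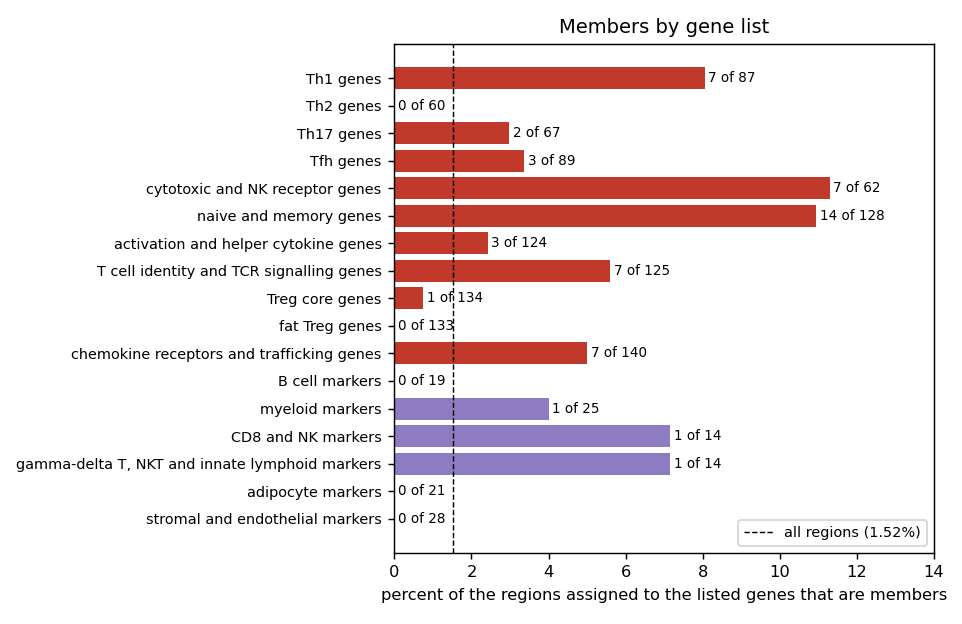
Share of each list's regions that were selected, in percent, with T cell lists in red and markers of other cell types in purple; the dashed line is the 1.52% of all regions. The cytotoxic (11.3%) and naive and memory (10.9%) lists stand highest, and the Th2, fat Treg, B cell, adipocyte and stromal lists have no selected region.

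Of the lists of markers of cells other than CD4 T cells, 3 had 1 selected region each. The B cell (19 regions), adipocyte (21) and stromal and endothelial (28) lists had none. The myeloid list had 1 of 25 (4.0%), between Itgam and Itgax, the integrin chains CD11b and CD11c, with 2.29 and 4.33 CPM in CD4 cells and 0.616 to 1.83 in Tregs. The CD8 and NK list had 1 of 14 (7.14%), at the NK receptor genes Klrc1 and Klrc2, and the list of gamma-delta T, NKT and innate lymphoid cells 1 of 14 (7.14%), at Cd163l1. These shares rest on 1 region each and lie above the 1.52% of all regions, and those of 7.14% above the 5.60% of the T cell identity list. Among regions under 1000 bp alone, selected were 1 of 14 (myeloid), 1 of 7 (CD8 and NK) and 1 of 9 (gamma-delta and innate lymphoid), beside 3.91% of all such regions. Summed CPM in CD4 cells and over the Treg libraries were 329 to 411 and 338 to 428 for B cell markers, 207 to 260 and 218 to 297 for myeloid markers, 200 to 201 and 171 to 213 for CD8 and NK markers, and 183 to 215 and 164 to 236 for adipocyte markers. For stromal and endothelial markers they were 256 to 266 and 258 to 289. Gamma-delta and innate lymphoid markers had the only sum without overlap, 72.9 to 74.4 CPM in CD4 cells against 85.2 to 109 in Tregs. No region was listed for the defining genes Ms4a1, Lyz2, Csf1r, Adgre1, Cd8a and Ncr1. The part of other cells in the selected regions was not tested.

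Among Th1 genes the cytokine, its receptor and the interleukin-12 receptor each had selected regions. A second Ifng region, chr10:118633474-118633791 and 188 kb from the gene, had 8.11 and 13.3 CPM in CD4 cells, 5.12 and 4.56 in Tregs of male VAT, 4.59 and 5.59 in those of female VAT and 2.22 and 2.88 in those of spleen. The other 9 regions of Ifng had a median CD4 to Treg ratio of 0.73, so the gene's locus was not open throughout in CD4 cells. Il12rb2, the chain that makes the interleukin-12 receptor signal, had 2 selected regions of 3. The one inside the gene, 333 bp wide at chr6:67348090-67348422, had 16.8 and 18.2 CPM in CD4 cells and 2.96 to 7.16 in Tregs. The one 23.3 kb outside it, 285 bp wide at chr6:67399590-67399874, had 8.64 and 11.9 CPM in CD4 cells, 3.19 and 3.58 in Tregs of male VAT, 2.55 and 2.79 in those of female VAT and 0.862 and 0.896 in those of spleen. At this region each Treg pair was narrow, and spleen Tregs lay below both VAT groups. Ifngr1, a chain of the interferon-gamma receptor, had 8.29 and 7.55 CPM against 1.85 to 3.57, at a region 93.4 kb from the gene. Cxcr6, a chemokine receptor of tissue-resident T cells, shared a 3463 bp region with Fyco1, in whose body it lies: it had 14.1 and 19.1 CPM in CD4 cells and 5.75 to 11.8 in Tregs. Stat4, the factor that interleukin-12 activates, had a 77 bp region with 1.59 and 3.91 CPM against 0.896 to 1.40, and was chosen after its values were seen. The other 12 Stat4 regions had a median ratio of 0.70. No selected region was found at Tbx21, the gene of T-bet, or at Eomes, Runx3, Tnf or Ccl5.

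Of the 16 cytotoxic genes with a region, 5 had selected ones, at granule proteins, a death ligand and NK receptors. Prf1 had a second region beyond the end of the gene, 1.601 kb away, with 6.00 and 5.45 CPM in CD4 cells and 0.869 to 2.91 in Tregs. Fasl, the ligand of the death receptor Fas, had 2 of 12 regions selected, 75.8 and 67.5 kb from the gene. The farther one, 269 bp wide, had 4.94 and 5.73 CPM in CD4 cells, 4.06 and 2.50 in Tregs of male VAT, 2.14 and 1.70 in those of female VAT and 0.616 and 1.02 in those of spleen. The 3 Treg groups did not overlap there, in the order male VAT, female VAT, spleen. Female VAT Tregs differed from neither other group in the edgeR test below (adjusted p = 0.408 against spleen, 0.462 against male VAT). How often such an order arises over all regions was not taken. The nearer one had 5.64 and 8.53 CPM in CD4 cells and 2.61 to 4.54 in Tregs, with the Treg groups overlapping. The other 10 Fasl regions had a median ratio of 1.12. Klrc1, an inhibitory NK receptor, had 7.23 and 5.87 CPM against 0.616 to 2.82, and Klrk1, the activating receptor NKG2D, 3.18 and 3.35 against 0.246 to 1.21. The Klrc1 region is also assigned to Klrc2, a near copy of Klrc1.

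Naive and memory genes gave the largest number of selected regions, 14 at 9 genes. Tcf7, the gene of TCF-1, had 1 of 9 regions selected, 30.7 kb from the gene and 471 bp wide (chr11:52314132-52314602). It had 11.8 and 19.3 CPM in CD4 cells, 2.86 and 1.19 in Tregs of male VAT, 3.87 and 3.76 in those of female VAT and 4.19 and 5.44 in those of spleen. Spleen Tregs were above female VAT Tregs and these above male VAT Tregs, with no overlap. Here too female VAT Tregs differed from neither other group (edgeR adjusted p = 0.872 against spleen, 0.202 against male VAT). Lef1, its relative LEF-1, had an intragenic region of 2277 bp with 17.3 and 23.9 CPM against 9.58 to 12.6, and a 79 bp region 16.3 kb away with 3.35 and 2.24 against 0.739 to 2.14. Ccr7, the receptor that leads T cells into lymph nodes, had a 182 bp region with 6.70 and 8.53 CPM against 1.63 to 3.36. Its second region, 101 bp wide, had 3.35 and 4.05 CPM in CD4 cells, 0.200 and 0.109 in Tregs of male VAT, 0.917 and 1.34 in those of female VAT and 0.493 and 0.704 in those of spleen. Male VAT Tregs were the lowest group at both, by the widest margin at the 101 bp region.

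S1pr1, the receptor with which T cells leave lymph nodes, had 3 of 14 regions selected. The widest, of 3655 bp and 25.7 kb from the gene, had 29.8 and 37.7 CPM in CD4 cells, 20.8 and 16.6 in Tregs of male VAT, 22.3 and 15.3 in those of female VAT and 19.95 and 19.8 in those of spleen. All 3 Treg groups overlapped there. Klf3, a transcriptional repressor of the Krüppel-like family, had 12.7 and 16.1 CPM against 5.25 to 8.15. Foxp1, a factor of naive T cell quiescence, had a 287 bp region with 10.1 and 11.2 CPM against 3.45 to 6.19 and a 79 bp region with 4.06 and 2.24 against 0 to 0.768. Satb1, a chromatin organiser of T cells, had one with 4.76 and 2.24 against 0.370 to 1.46. Both genes were chosen after their values were seen. The list's remaining selected regions lay at Actn1 and at Txk and Tec.

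T cell receptor and costimulation genes showed the same mixture of narrow regions inside and near genes. Ptprc, the gene of the phosphatase CD45, had 5.29 and 3.63 CPM in CD4 cells, 0.532 and 0.543 in Tregs of male VAT, 0.713 and 0.486 in those of female VAT and 0.493 and 0.448 in those of spleen. This region, chr1:138188283-138188409 and 12.5 kb from the gene, had a CD4 mean 7.44-fold above the highest Treg group, while the other 13 Ptprc regions had a median ratio of 1.06. Cd28, the main costimulatory receptor, had 9.53 and 9.22 CPM against 2.39 to 5.71. Prkcq, the kinase PKC-theta of the T cell receptor pathway, had an intragenic region with 4.59 and 5.03 CPM against 1.15 to 2.19 and another with 3.53 and 2.94 against 0.729 to 1.40. Cd2 and Cd6, adhesion receptors of T cells, had 5.47 and 7.13 CPM against 1.86 to 4.06 and 6.00 and 6.99 against 1.74 to 3.94. Near Cd4 the selected region of 77 bp had 1.23 and 2.94 CPM against 0.192 to 0.850, and the other 8 Cd4 regions a median ratio of 0.85.

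Inhibitory receptors and helper genes had single regions. Btla, an inhibitory receptor of the CD28 family, had 7.23 and 6.43 CPM in CD4 cells, 1.596 and 1.30 in Tregs of male VAT, 1.94 and 0.971 in those of female VAT and 0.739 and 1.41 in those of spleen. Pdcd1, the gene of PD-1, had a 2983 bp region 37.9 kb away with 17.1 and 26.8 CPM against 9.34 to 13.4. Tnfsf8, the CD30 ligand, had 3.00 and 5.03 CPM against 0.370 to 1.47, Il2, the T cell growth factor, 5.64 and 6.57 against 2.13 to 4.67, and Cd44, a marker of activated and memory cells, 5.64 and 5.17 against 1.94 to 4.54. Il1r1 and Stat3 on the Th17 list had 1.76 and 3.49 CPM against 0.729 to 1.35, and 2.47 and 4.05 against 0.333 to 2.05. Itga4, an integrin chain of T cell trafficking, had 4.06 and 2.52 CPM against 0.466 to 1.601 at a region 128 kb from the gene. The Cd163l1 region had 4.41 and 6.29 CPM against 0.616 to 1.86.

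Ctla4 was the single Treg core gene with a selected region. It was 141 bp wide at chr1:60882876-60883016, 26.0 kb from the gene inside Gm38137, and had 4.23 and 4.75 CPM in CD4 cells, 1.86 and 1.74 in Tregs of male VAT, 1.94 and 3.04 in those of female VAT and 1.72 and 2.56 in those of spleen. The other 12 regions of Ctla4 had a median ratio of 0.63, and the 9146 bp region over the gene had 35.1 and 43.9 CPM in CD4 cells against 59.2 to 80.3 in Tregs. The locus thus held a narrow region higher in CD4 cells beside a wide one lower in them.

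Outside the lists, Gramd3, which encodes a GRAM domain protein, had the most selected regions, 5 of its 15, all inside its gene body on chromosome 18. The 199 bp region chr18:56413009-56413207 had 8.996 and 7.69 CPM in CD4 cells, 0.798 and 0.434 in Tregs of male VAT, 0.815 and 0.607 in those of female VAT and 0.862 and 0.640 in those of spleen. Its ratio to the highest Treg group, 11.1, was the largest of all 690. The 347 bp region had 19.2 and 22.4 CPM against 3.91 to 7.34 in the Treg libraries, and the other 10 Gramd3 regions had a median ratio of 0.87. Selected regions numbered 4 at Gm20139, at Tnip3, which encodes a partner of the NF-kB inhibitor A20, and at the lipid kinase gene Pip4k2a. They numbered 3 at S1pr1, at the ganglioside synthase gene St8sia1, at Plekha5 and at Tmem194b, which RefSeq lists as Nemp2. In all, 83 genes had more than 1 selected region and 636 had 1.

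The regions farthest above every Treg library were all under 300 bp and held few Treg counts. A 144 bp region inside Plch2, assigned to the peroxisome gene Pex10, had 4.59 and 4.75 CPM in CD4 cells, 0.532 and 0.217 in Tregs of male VAT, 0.102 and 0.243 in those of female VAT and 0.370 and 0.576 in those of spleen. Female VAT Tregs had 3 counts in all there. Actr10, of the dynactin complex, had 4.23 and 4.05 CPM against 0.121 to 0.612. Dync1li2, a light intermediate chain of dynein, had 12.3 and 9.22 CPM in CD4 cells, 0.798 and 0.434 in Tregs of male VAT, 1.83 and 1.70 in those of female VAT and 0.739 and 1.28 in those of spleen. Clasp2, a microtubule-binding protein, had 6.70 and 5.73 CPM against 0.246 to 1.09 at a region 476 bp from its start. The same pattern was seen inside Kidins220, a membrane scaffold (5.12 and 3.91 against 0.200 to 0.616 CPM). A region inside Gm39280, 11.3 kb from its assigned gene Cog2, a Golgi tethering subunit, had 5.82 and 4.33 against 0.121 to 0.651 CPM. Another inside Zfp800, 72.2 kb from its assigned gene Arf5, a small GTPase, had 4.23 and 5.17 against 0.123 to 0.607. The rest of the 12 were the Ptprc region, Tdrp, and Atp9b and Smad4 on chromosome 18.

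Tregs of male VAT and male spleen differed at some of the 690 regions. The rule also used the Treg libraries: it kept no region where a Treg library reached the CD4 libraries or a Treg group mean came near the CD4 mean, so regions far higher in 1 Treg group were removed. The counts of calls in the 3 Treg contrasts are therefore descriptions of the regions left, and the test belongs to each region in the fit over all regions. Of the 690, 686 passed the filter on low counts of edgeR's quasi-likelihood fit, and 567 of them would have passed on the Treg libraries alone. The other 119 entered only through the CD4 libraries, where the rule made them high. Compared with spleen Tregs, male VAT Tregs were higher at 23 of the 686 (3.35%) and lower at 13 (1.90%) at an adjusted p under 0.05, beside 4.64% and 2.09% of all 45709 regions tested. Among short autosomal regions 10.4% were higher and 1.10% lower; the limit that the rule put on Treg levels bears on this difference, which was not tested. Of the calls, 20 of the 23 higher and all 13 lower ones passed the filter on the Treg libraries alone, and a fit of the 6 Treg libraries by themselves called 16 higher and 10 lower of 591. The median log2 difference was -0.10 over the 686, -0.01 over all autosomal regions and 0.12 over the short ones. The count of 36 was 13 with DESeq2 (10 higher, 3 lower) and 16 (12 and 4) with the other groups left out of the fit. It was 12 without male VAT Treg replicate 1, 17 without spleen Treg replicate 1 and 11 without spleen Treg replicate 2. With scaling factors from short regions only, 2 were higher and 7 lower, and the median of all regions moved to -0.35. The split between higher and lower therefore holds for the scaling used here.

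Cblb, the ubiquitin ligase that restrains T cell receptor signalling, had the firmest call. Its 565 bp region inside the gene, chr16:52142897-52143461, had 18.2 and 18.4 CPM in CD4 cells, 3.86 and 2.61 in Tregs of male VAT, 4.79 and 4.74 in those of female VAT and 0.862 and 0.448 in those of spleen. Male VAT Tregs were higher than spleen Tregs by 2.46 ± 0.43 on the log2 scale (adjusted p = 2.75e-06, edgeR) and female VAT Tregs by 3.00 ± 0.42 (adjusted p = 5.33e-09, edgeR), and both calls held under each of the 17 alternatives run. The other 20 Cblb regions had a median CD4 to Treg ratio of 0.92. Here and throughout, the ± of a log2 difference is its approximate standard error. The 2 contrasts share the spleen libraries, so they are not independent.

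Of the list regions, Fasl and Il12rb2 were higher and Tcf7 lower in male VAT than in male spleen Tregs. The 269 bp Fasl region rose by 1.96 ± 0.48 (adjusted p = 0.00237, edgeR), and this p was 0.116 without male VAT Treg replicate 1. The 285 bp Il12rb2 region rose by 1.94 ± 0.44 (adjusted p = 0.000803), a call that held with each library left out. The Tcf7 region fell by 1.17 on the log2 scale (standard error 0.33, adjusted p = 0.0111), and the p was 0.204 without male VAT Treg replicate 2, 0.203 without spleen Treg replicate 2 and 0.0965 with DESeq2. Over whole lists, 19 of 87 tested Th1 regions were higher and 1 lower, 7 of 60 cytotoxic regions were higher and none lower, and 7 of 126 naive and memory regions were higher and 11 lower. Of fat Treg genes, 46 of 123 tested regions were higher and 2 lower, and of Treg core genes 14 and 5 of 132. Beside these counts, 4.64% of all regions tested were higher and 2.09% lower, and 10.4% and 1.10% of short autosomal ones. Most regions of these lists were under 1000 bp, such as 59 of 87 Th1 and 38 of 62 cytotoxic regions. The part of width in the list counts was not tested. Other list regions among the selected ones did not pass the test in this contrast.

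The other named calls in this contrast rested on few spleen counts or on single libraries. The 81 bp Gramd3 region had 39 counts in male VAT Tregs and 3 in spleen Tregs, a ratio of 12.7 with an exact 95% interval of 4.05 to 64.4 (adjusted p = 0.00327, edgeR), and the 259 bp Gramd3 region rose by 1.18 ± 0.32 (adjusted p = 0.00645). Without male VAT Treg replicate 1 these adjusted p were 0.0916 and 0.327, and without spleen Treg replicate 2 that of the 259 bp region was 0.177. Gm15817 rose by 2.93 ± 0.66 (adjusted p = 0.000642) and 1700013D24Rik by 1.16 ± 0.27 (adjusted p = 0.000906). The p of Gm15817 was 0.0870 without spleen Treg replicate 2, and that of 1700013D24Rik was 0.0592 without male VAT Treg replicate 1 and 0.0671 without spleen Treg replicate 1. Regions at Asap2, a regulator of Arf GTPases, at Man2b2, a lysosomal mannosidase gene, and at Cit were called too but passed the filter only through the CD4 libraries, so their values are given without a test; Cit was chosen after its values were seen. Asap2 had 1.06 and 0.760 CPM in male VAT Tregs against 0 and 0.0640 in spleen Tregs, and Man2b2 2.00 and 0.434 against 0 and 0.256. The Man2b2 level rested on male VAT Treg replicate 1. Cit had 39 counts in male VAT Tregs and 7 in spleen Tregs.

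Among regions lower in male VAT than in spleen Tregs, Tpst2, a tyrosine sulfotransferase gene, showed the largest difference. It had 4.59 and 4.33 CPM in CD4 cells, 0.466 and 0.109 in Tregs of male VAT, 0.612 and 0.971 in those of female VAT and 1.97 and 2.05 in those of spleen. It fell by 2.59 (standard error 0.67, adjusted p = 0.00472, edgeR), with a p of 0.0735 without male VAT Treg replicate 2. Gm2447 fell by 2.06 (adjusted p = 0.00565), Tmem194b by 2.02 (0.0314), Epb4.1l2, a cytoskeletal adaptor gene, by 1.52 (0.0278), and a Pip4k2a region by 1.39 (0.0281). The shared Limd2 and Strada region fell by 1.08 (0.0343). Leaving out male VAT Treg replicate 1 raised the p to 0.0536 for Gm2447, 0.200 for Tmem194b, 0.0784 for Epb4.1l2 and 0.383 for Pip4k2a. Without male VAT Treg replicate 2 it was 0.0564 for Tmem194b, 0.113 for Epb4.1l2 and 0.220 for Limd2. Without spleen Treg replicate 1 it was 0.0533 for Gm2447, 0.0550 for Epb4.1l2, 0.110 for Pip4k2a and 0.188 for Limd2, and without spleen Treg replicate 2 it was 0.197 for Tmem194b, 0.206 for Epb4.1l2, 0.111 for Pip4k2a and 0.0961 for Limd2. Tmem194b also missed the threshold without CD4 replicate 1 (0.0589) and without CD4 replicate 2 (0.0667), which are not part of the contrast, and in the fit of the 6 Treg libraries Tmem194b (0.100) and Limd2 (0.0678) missed it.

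Female VAT Tregs were set against male spleen Tregs, so tissue and sex cannot be told apart in that contrast. They were higher at 14 of the 686 regions (2.04%) and lower at none, beside 1.18% and 0.197% of all regions tested and 1.61% and 0.267% of short autosomal ones. Of the 14, 13 passed the filter on the Treg libraries alone, and a fit of the 6 Treg libraries by themselves called 7 higher and none lower. At an unadjusted p under 0.05, edgeR gave 46 higher and 15 lower, and DESeq2 called 4 higher and none lower. The region that passed only through the CD4 libraries lay at Klhl5, of a family of ubiquitin ligase adaptors, and had 1.53 and 0.850 CPM in female VAT Tregs and 0.246 and 0.0640 in spleen Tregs, given without a test. Beside Cblb, Gm15817 rose by 2.81 ± 0.68 (adjusted p = 0.00654, edgeR), a region at Atp6v0a4 and Tmem213 by 2.62 ± 0.71 (0.0253), the 285 bp Il12rb2 region by 1.61 ± 0.47 (0.0457) and the 259 bp Gramd3 region by 1.16 ± 0.33 (0.0348). Of these 5 tested calls, Cblb alone held with each library left out. Without spleen Treg replicate 2 the adjusted p was 0.269 for Gm15817, 0.375 for Atp6v0a4, 0.299 for Il12rb2 and 0.391 for Gramd3. Without female VAT Treg replicate 1 it was 0.169 for Atp6v0a4, 0.267 for Il12rb2 and 0.833 for Gramd3, and without replicate 2 of that group 0.120 for Gm15817, 0.193 for Atp6v0a4, 0.312 for Il12rb2 and 0.0506 for Gramd3. Without spleen Treg replicate 1 it was 0.190 for Il12rb2 and 0.0971 for Gramd3. Without CD4 replicate 1 it was 0.0544 for Atp6v0a4, and without CD4 replicate 2 it was 0.0848 for Atp6v0a4 and 0.0624 for Il12rb2. In the fit of the 6 Treg libraries it was 0.109 for Atp6v0a4 and 0.103 for Il12rb2. The count of 14 was 5 without female VAT Treg replicate 1, 3 without female VAT Treg replicate 2 and 3 without spleen Treg replicate 2. It was 7 with library size as the only scaling and 1 with factors from short regions.

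Male and female VAT Tregs, the comparison by sex within fat, differed at few of these regions. Male VAT Tregs were higher at 4 of 686 (0.583%) and lower at 1 (0.146%), beside 2.04% and 1.21% of all regions and 4.85% and 0.204% of short autosomal ones. All 5 passed the filter on the Treg libraries alone and were called in the fit of those 6 libraries. A region assigned to Mak and Gcm2 had 6.00 and 6.57 CPM in CD4 cells, 3.66 and 1.85 in Tregs of male VAT, 0.713 and 0.607 in those of female VAT and 2.34 and 1.28 in those of spleen, a difference of 2.06 ± 0.54 (adjusted p = 0.00914, edgeR). Vmn2r100, a vomeronasal receptor gene, differed by 1.79 ± 0.42 (adjusted p = 0.00252), 1700013D24Rik by 1.13 ± 0.28 (0.00410) and a region near the small GTPase gene Rap2b by 0.99 ± 0.30 (0.0389). The Limd2 and Strada region had 11.3 and 13.4 CPM in CD4 cells, 2.46 and 1.41 in Tregs of male VAT, 5.50 and 4.01 in those of female VAT and 4.56 and 4.09 in those of spleen. It was lower in male VAT Tregs by -1.26 ± 0.35 (adjusted p = 0.0169). None of the 5 calls held with each library left out. Without female VAT Treg replicate 1 the adjusted p was 0.149 for Mak, 0.0973 for Vmn2r100, 0.114 for 1700013D24Rik, 0.370 for Rap2b and 0.436 for Limd2, and without replicate 2 of that group 0.185, 0.0827, 0.117 and 0.247 for the first 4 of these. Without male VAT Treg replicate 1 it was 0.273 for Mak, 0.0962 for 1700013D24Rik and 0.317 for Rap2b, and without male VAT Treg replicate 2 it was 0.147 for Limd2. The count of 5 was 0 without female VAT Treg replicate 1, 1 without female VAT Treg replicate 2, 2 with DESeq2 and 0 with factors from short regions. Without male VAT Treg replicate 1 the count was 4, of which 1 was higher and 3 were lower, and 2 were among the original 5. No selected region of the T cell lists was called between male and female VAT Tregs; the 101 bp Ccr7 region came nearest among those described, at -2.70 ± 0.90 (adjusted p = 0.0741).

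**Figure D4:**
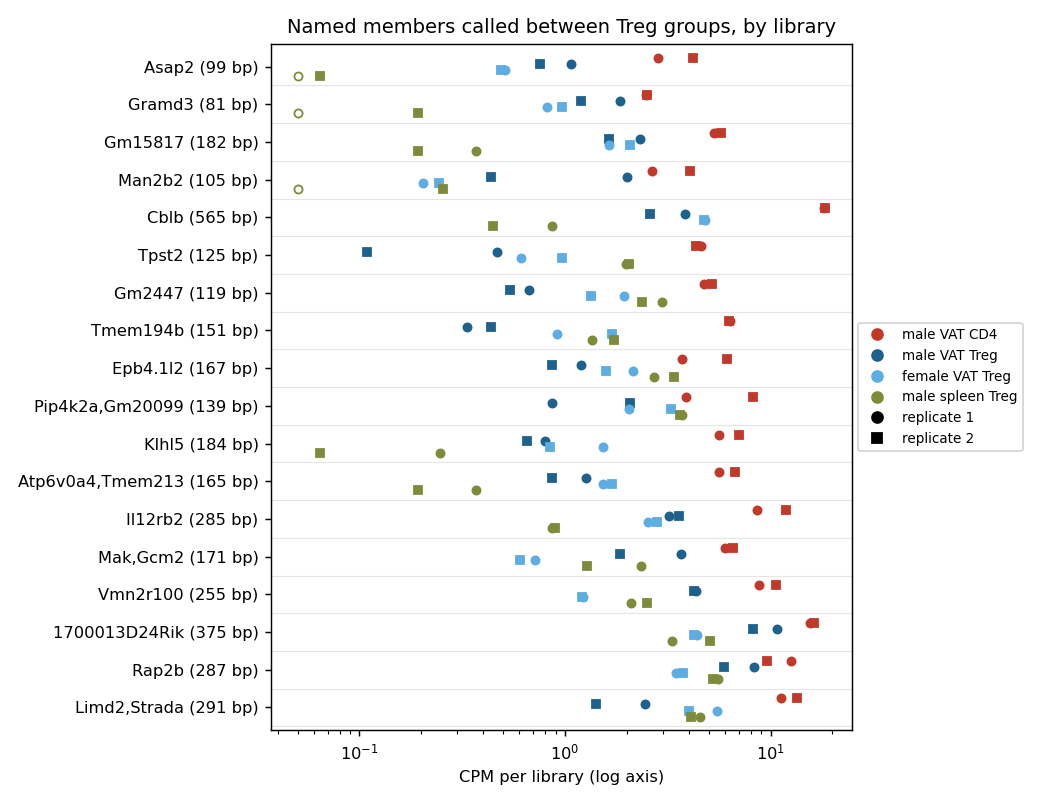
CPM (log scale) in each library for the selected regions named from the 3 Treg contrasts, with a circle for replicate 1 and a square for replicate 2 and an open symbol at 0.05 CPM for a count of 0. At Cblb the spleen Treg symbols (0.862 and 0.448) lie left of both VAT Treg groups, and at Tpst2 they lie right of male VAT Tregs.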

How the data were processed

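The authors deposited raw counts per region for all 8 libraries and, per library, log2 CPM values shifted by a constant. Per the submitters' processing notes, Subread 1.6.2, HOMER 4.9, featureCounts and limma were named, with the build mm10. How regions were called is not given in the sources used here. Deposited log2 values entered 1 alternative of the rule, and counts everything else. Entries that repeated a region for several genes were reduced to 1. Table starts were read as counting from 0 and are printed counting from 1. All regions on chromosomes 1 to 19, X and Y entered 1 edgeR 4.0.16 fit (R 4.3.3, TMM, filterByExpr, quasi-likelihood F test, Benjamini-Hochberg over 45709 regions), tested on simulated data, with DESeq2 1.42.0 as an alternative. Without molecular identifiers, intervals hold counting error only. Members, lists and comparisons were chosen with earlier results of these data known. Named were the 12 regions farthest above the highest Treg library (CD4 mean at least 4 CPM, predicted genes left out), the 8 genes with most regions, up to 4 genes per list, up to 5 called regions per contrast and direction, and Foxp3, Il2ra, Ctla4, Ikzf2 and Cd4. Replicates differed beyond sampling noise in every group (chi-square per degree of freedom 2.59 to 8.05), so no library counted as a duplicate. No sequence from chromosome 18 or outside the RefSeq promoters is printed.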

Additional observations from a re-analysis of the deposited data

How the results depend on the processing

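The number of selected regions was 1043 when the CD4 mean had to be 25% above each Treg group, 383 with a fold of 2, 441 with a minimum of 4 CPM, and 1098 with library totals over regions under 1000 bp, and ran from 665 to 1067 with each library left out. It stayed within 1.5 times of 690 with TMM factors (921), the deposited log2 values (909), a minimum of 1 CPM (693) and totals without regions over 1000 CPM (831). The share under 1000 bp, 92.9%, was 76.7% and 98.7% with these folds, 88.9% with 4 CPM, 86.9% with the deposited log2 values, 86.9% with TMM factors, 89.2% and 83.8% with the changed library totals, and 84.8% to 93.9% with a library left out. The median CD4 ratio of 2.10 was 2.41 with totals over short regions and 1.93 to 2.25 without 1 CD4 library. The calls between male VAT and spleen Tregs numbered 9 with factors from short regions, 16 with the 2 groups alone, 13 with DESeq2, and 11 to 33 with a library left out. Those between female VAT and spleen Tregs numbered 7 with library size alone, 1 with factors from short regions, 4 with DESeq2, 7 with the 6 Treg libraries alone (chosen after seeing the data), and 3 to 14 with a library left out. Those between male and female VAT Tregs numbered 0 with factors from short regions, 2 with DESeq2, and 0 to 6 with a library left out. Factors from short regions moved the median log2 difference of all regions by -0.35, -0.11 and -0.24 in these contrasts, and the causes were not tested. The library totals without regions over 1000 CPM, chosen after seeing the data, left all 3 counts as they were. Over the 27 named calls, 334 recomputed values stayed past the threshold, 119 missed it in the same direction, and none changed sign. The 27 include Asap2, Man2b2 and Klhl5, which passed the filter only through the CD4 libraries and are given without a test. Their recomputed values are part of these counts and carry no weight for a call. With the Treg libraries alone these regions gave no value.

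Same-numbered libraries did not deviate together (correlations of -0.146 to 0.0666), so the numbers were not taken as pairs. With the replicate number as a block, the counts of 36, 14 and 5 became 31, 10 and 4. Depth limits these regions: with a median of 62 counts over both CD4 libraries and 113 over the 6 Treg libraries, single levels are loose, and 6 regions had 3 or fewer counts over a Treg group.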
